A study of Mus musculus with 17 samples.

Results

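Collagens are the main structural proteins of the extracellular matrix. In these data they are the 44 genes of 47643 listed symbols whose symbol reads Col, a type number, the letter a and a chain number. They were sorted by the structure of the protein into 11 fibrillar, 8 basement membrane and 25 other collagens, and all 44 were given a position in the mouse annotation. The RNA of diaphragm muscle was sequenced from 17 male C57BL/6J mice, all 4 months old and each in 1 of 4 groups. Control mice (n = 5) had no tumor and received mock injections of bovine serum albumin in saline, while Control + rFibcd1 mice (n = 5) had no tumor and received rFibcd1, a recombinant fragment of mouse Fibcd1, through the peritoneum. LLC mice (n = 3) bore tumors of LLC cells, a mouse Lewis lung carcinoma line, in both flanks and received mock injections, and LLC + rFibcd1 mice (n = 4) carried the same tumor and received rFibcd1. Treatment began only after the tumors had grown, so the comparison of rFibcd1 with mock injections concerns an established tumor. RNA came from a piece of muscle freed of tendon that holds many cell types, so fewer cells of a type and less RNA per cell cannot be told apart. The labels present the samples of a group as biological replicates.

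Each collagen chain winds with others into a triple helix. Fibrillar collagens such as types I and III form the banded fibers that give tendon and the connective tissue of muscle their tensile strength. Type IV collagen is instead built as a mesh in the basement membrane, the sheet that surrounds every muscle fiber and blood vessel. The remaining classes decorate fibrils (the FACIT types), link cells to the matrix as beaded filaments (type VI), span the cell membrane, or anchor epithelia and form short-chain networks. In skeletal muscle most fibrillar and type VI chains are made by fibroblasts, and much of the type IV collagen by fibers and endothelial cells.

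Levels are given in TPM (transcripts per 1000000), in which read numbers are corrected for gene length, so that levels of different genes can be set side by side. The depth recovered from the low values was 50.8 to 54.6 M reads a sample (M is 1000000). The 10 myofiber markers were all detected, so the labelled muscle was present throughout. They summed to 68196 to 73960.2 TPM in Control, 67194 to 74828 TPM in Control + rFibcd1, 57540.1 to 62044 TPM in LLC and 61439 to 70572 TPM in LLC + rFibcd1, so that every LLC mouse was below every Control mouse. Mitochondrially encoded transcripts took 45.4% to 50.4% of TPM in tumor-free mice and 41.3% to 46.5% in tumor-bearing mice. A smaller mitochondrial share leaves more TPM for the remaining genes. The median gene was 0.16 higher on the log2 scale in LLC than in Control, and 0.075 higher after rescaling without mitochondrially encoded genes.

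Of the 44 collagen genes, 30 reached at least 1 TPM in at least 3 mice and entered the tests, among them 9 of 11 fibrillar, 7 of 8 basement membrane and 14 of 25 other collagens. The sequences shown are those of the 3 members called in tumor-bearing mice given rFibcd1, which lie at 2 places. The genes for the main chains of type IV collagen sit head to head on chromosome 8, with Col4a1 on the minus strand at chr8:11198423-11312826 and Col4a2 on the plus strand at chr8:11312805-11449287 (GRCm38, GENCODE annotation). Their first exons share 22 bases at chr8:11312805-11312826. They are printed because the levels of the pair moved closely together, as described below. From RefSeq on GRCm38.p6, the shared stretch reads on the plus strand as follows, with 1 GC box (GGGCGG) in capitals.
Col4a1 and Col4a2: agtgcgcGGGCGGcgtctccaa
Col5a3, a minor chain of type V collagen that regulates fibril assembly, lies at chr9:20770050-20815067 on the minus strand. Its promoter is printed because Col5a3 rose with the type IV pair in tumor-bearing mice given rFibcd1. The 250 bases upstream of its start, at chr9:20815068-20815317, read 5′ to 3′ as follows, with 1 CCAAT box and 2 GC boxes in capitals.
Col5a3: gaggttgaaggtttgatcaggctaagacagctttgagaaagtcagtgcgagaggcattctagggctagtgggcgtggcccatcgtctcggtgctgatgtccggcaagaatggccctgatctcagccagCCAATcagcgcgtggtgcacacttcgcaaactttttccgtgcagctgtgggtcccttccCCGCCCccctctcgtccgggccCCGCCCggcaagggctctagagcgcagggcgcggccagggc

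RefSeq promoters were found for 35 of the 44 members, some with more than 1 start, giving 38 promoters of 250 bases before the start. All 3 motifs were searched on both strands by their letters, and none contains another. The CCAAT box, letters CCAAT, stood in 13 of the 38 collagen promoters and in 33.8% of all 32851 promoters. The TATA box, letters TATAAA, stood in 5 of 38 against 12.4% of all. The GC box, letters GGGCGG, stood in 22 of 38 against 32.7% of all. A match describes the letters of the window only.

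The collagen transcripts of the diaphragm were dominated by a few chains. Col3a1, the single chain of type III collagen, made up 14.9% of summed collagen TPM on average over the 17 mice. Col4a1 followed at 12.7%, Col1a1 at 11.9%, Col6a1 at 10.7%, Col4a2 at 9.64% and Col1a2 at 9.58%. These 6 chains together held 69.4%. Among the other classes, Col14a1, a FACIT collagen on the surface of fibrils, averaged 16.3 TPM. Col16a1, another FACIT collagen, averaged 4.95 TPM, Col8a1 of the short-chain collagens 9.36 TPM, and Col8a2 3.05 TPM. Col23a1, the only membrane-spanning collagen to pass the filter, averaged 2.88 TPM.

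Summed over all 44 members, collagen transcripts reached 535 ± 79.1 TPM in Control (SD, n = 5) and 469 ± 109 TPM in Control + rFibcd1 (n = 5). The sums were 610 ± 26.7 TPM in LLC (n = 3) and 571 ± 129 TPM in LLC + rFibcd1 (n = 4), and the ranges of all 4 groups overlapped. The share of each class within this sum is not changed by multiplying a library by a single factor. Shares after quantile normalization, which is no such factor, were not computed. Fibrillar collagens made up 42.9 ± 1.37% of collagen TPM in Control, 42.8 ± 2.37% in Control + rFibcd1, 46.3 ± 1.23% in LLC and 39.6 ± 4.76% in LLC + rFibcd1. Basement membrane collagens made up 28.1 ± 2.17%, 28.5 ± 3.04%, 27.0 ± 0.402% and 34.7 ± 5.76% in the same order.

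**Figure D1:**
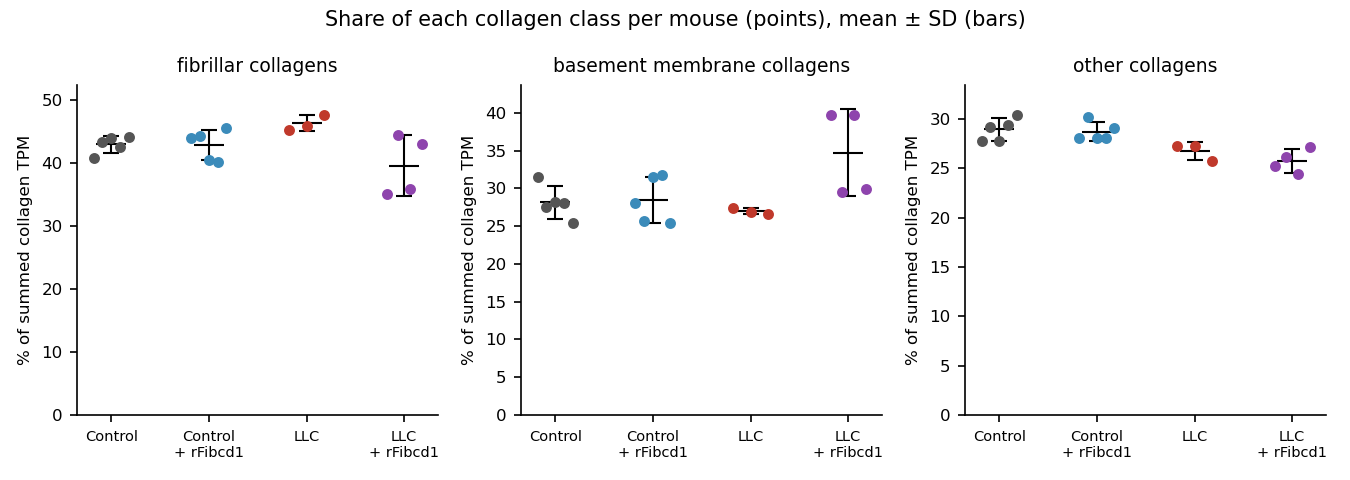
Share of summed collagen TPM held by fibrillar, basement membrane and other collagens, in percent, for each of the 17 mice (points) with the group mean and SD (bars). The LLC + rFibcd1 mice split into replicates 1 and 3 with basement membrane shares of 39.6% and 39.8%, and replicates 2 and 4 with 29.5% and 29.95%.

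The other collagens held 27.8% to 30.4% of collagen TPM in Control, 28.0% to 30.2% in Control + rFibcd1, 25.7% to 27.3% in LLC and 24.4% to 27.1% in LLC + rFibcd1. Tumor-bearing and tumor-free mice thus did not overlap in this share, a separation that was noticed after the shares were computed and is given without a test. Among the other collagens, the beaded filament class, which is the type VI chains and Col28a1, averaged 20.2 ± 0.956% in Control, 19.3 ± 0.745% in Control + rFibcd1, 17.7 ± 0.684% in LLC and 17.6 ± 1.44% in LLC + rFibcd1, with overlap between single mice. The type IV chains alone, without types XV and XVIII, held 21.6 ± 1.98%, 22.1 ± 3.69%, 21.4 ± 0.438% and 28.9 ± 5.62% in the same order.

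LLC was compared with Control to ask which collagens differ in the diaphragm of tumor-bearing mice. By limma on log2(TPM + 1), with p-values adjusted by Benjamini-Hochberg over all genes tested, 2 of 30 collagens passed an adjusted p of 0.05. Both were higher in LLC and both are FACIT collagens, Col12a1 and Col16a1. In the same comparison 35.8% of the 13305 genes tested passed, so collagens passed less often than the genes at large by count, a difference that was not tested. No fibrillar and no basement membrane collagen passed. The median collagen lay -0.00091 from the median gene on the log2 scale, with fibrillar collagens 0.10, basement membrane collagens 0.0057 and other collagens -0.095 from it. LLC and Control mice did not overlap for 5 collagens, against 40.2% of all genes. All 5 were higher in LLC, namely Col12a1, Col16a1, Col1a1, Col8a2 and Col18a1.

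Col12a1, at chr9:79598991-79718831, codes for a FACIT collagen of tendon and other connective tissue under load. Its level was 1.27, 2.11, 2.11, 1.89 and 2.54 TPM in Control and 3.02, 3.54 and 3.58 TPM in LLC. It was 1.58, 2.25, 1.81, 1.79 and 2.48 TPM in Control + rFibcd1 and 2.00, 2.61, 1.38 and 2.77 TPM in LLC + rFibcd1. All 3 LLC mice were above the other 14. The log2 fold change in LLC against Control was 0.57 ± 0.16 (SE, adjusted p = 0.0168). It was 0.41 (adjusted p = 0.0711) when libraries were scaled by the median ratio of their genes, and 0.24 (adjusted p = 0.344) after quantile normalization.

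Col16a1, at chr4:130047840-130099283, codes for a FACIT collagen found with fibrils and microfibrils. Its level was 3.48, 4.81, 4.45, 3.54 and 4.72 TPM in Control and 6.64, 6.32 and 8.67 TPM in LLC. It was 5.14, 4.48, 3.35, 3.15 and 5.17 TPM in Control + rFibcd1 and 4.25, 5.90, 4.35 and 5.76 TPM in LLC + rFibcd1. Again all 3 LLC mice stood above the other 14. The log2 fold change was 0.66 ± 0.16 (SE, adjusted p = 0.0120). It was 0.48 (adjusted p = 0.0182) with median-ratio scaling, 0.61 (adjusted p = 0.0167) without mitochondrially encoded genes and 0.36 (adjusted p = 0.0474) with quantile normalization. Dunn's test called neither Col12a1 nor Col16a1, but its normal approximation is not usable at these group sizes. LLC replicate 3 had the highest level of both genes. Without this mouse neither passed, with 0.53 for Col12a1 (adjusted p = 0.0825) and 0.53 for Col16a1 (adjusted p = 0.0756).

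Tendon, cartilage, macrophage, B cell and T cell markers summed to more, and myofiber markers to less, in every LLC mouse than in every Control mouse, while fibroblast markers overlapped. The 8 tendon markers, all detected, summed to 96.9 to 159 TPM in Control, 107 to 152 TPM in Control + rFibcd1, 162 to 241 TPM in LLC and 93.5 to 263 TPM in LLC + rFibcd1. The 10 fibroblast markers summed to 1652 to 2094 TPM, 1300.0 to 2037 TPM, 2055 to 2239.8 TPM and 1599 to 2481 TPM, and the 8 macrophage markers to 327 to 680.2 TPM, 254 to 1880.1 TPM, 1036 to 1187 TPM and 471 to 1152 TPM in the same order. The 7 B cell markers summed to 2.41 to 97.5 TPM, 3.43 to 137 TPM, 222 to 282 TPM and 17.95 to 280.2 TPM, and the 7 T cell markers to 1.85 to 13.9 TPM, 1.53 to 9.56 TPM, 22.4 to 37.8 TPM and 3.24 to 35.9 TPM. The sum of the cartilage markers was 8.75 to 25.7 TPM, 7.27 to 25.2 TPM, 34.1 to 49.1 TPM and 15.6 to 49.3 TPM. It is mostly Comp and Chad, which tendon also makes, so it does not single out cartilage. The part of these cells in the differences of Col12a1 and Col16a1 was not tested.

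Type I collagen, the main protein of tendon, bone and scar, is a trimer of Col1a1 and Col1a2 chains in which Col1a1 chains are the more numerous. Col1a1, at chr11:94936224-94953042, had 45.4, 57.0, 76.6, 59.9 and 70.4 TPM in Control and 82.6, 81.5 and 94.9 TPM in LLC. It had 55.5, 60.9, 43.3, 39.5 and 76.6 TPM in Control + rFibcd1 and 41.6, 85.2, 50.2 and 83.5 TPM in LLC + rFibcd1. Every LLC mouse was above every Control mouse, but the log2 fold change of 0.49 ± 0.25 did not pass (adjusted p = 0.127). In a fit of these 2 groups alone the adjusted p was 0.0381, and with median-ratio scaling the fold change was 0.29 (adjusted p = 0.351).

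Col1a2, at chr6:4504814-4541544, had 39.3, 51.2, 61.8, 51.5 and 61.4 TPM in Control and 61.1, 60.5 and 68.6 TPM in LLC. It had 49.2, 53.3, 33.8, 35.9 and 65.9 TPM in Control + rFibcd1 and 31.8, 60.5, 35.7 and 56.8 TPM in LLC + rFibcd1. LLC and Control overlapped, with a log2 fold change of 0.27 ± 0.24 (adjusted p = 0.377). Col3a1, which forms fibrils together with type I, had 59.7, 84.1, 99.6, 80.1 and 87.1 TPM in Control and 89.6, 94.7 and 102 TPM in LLC. It had 82.9, 74.2, 43.3, 50.6 and 102 TPM in Control + rFibcd1 and 49.4, 124, 63.5 and 95.0 TPM in LLC + rFibcd1. These groups overlapped too, and the log2 fold change in LLC against Control was 0.23 ± 0.29 (adjusted p = 0.543). With median-ratio scaling the estimates were 0.066 (adjusted p = 0.836) for Col1a2 and 0.028 (adjusted p = 0.942) for Col3a1. In LLC + rFibcd1 the 3 chains were low in replicates 1 and 3 and high in replicates 2 and 4.

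**Figure D2:**
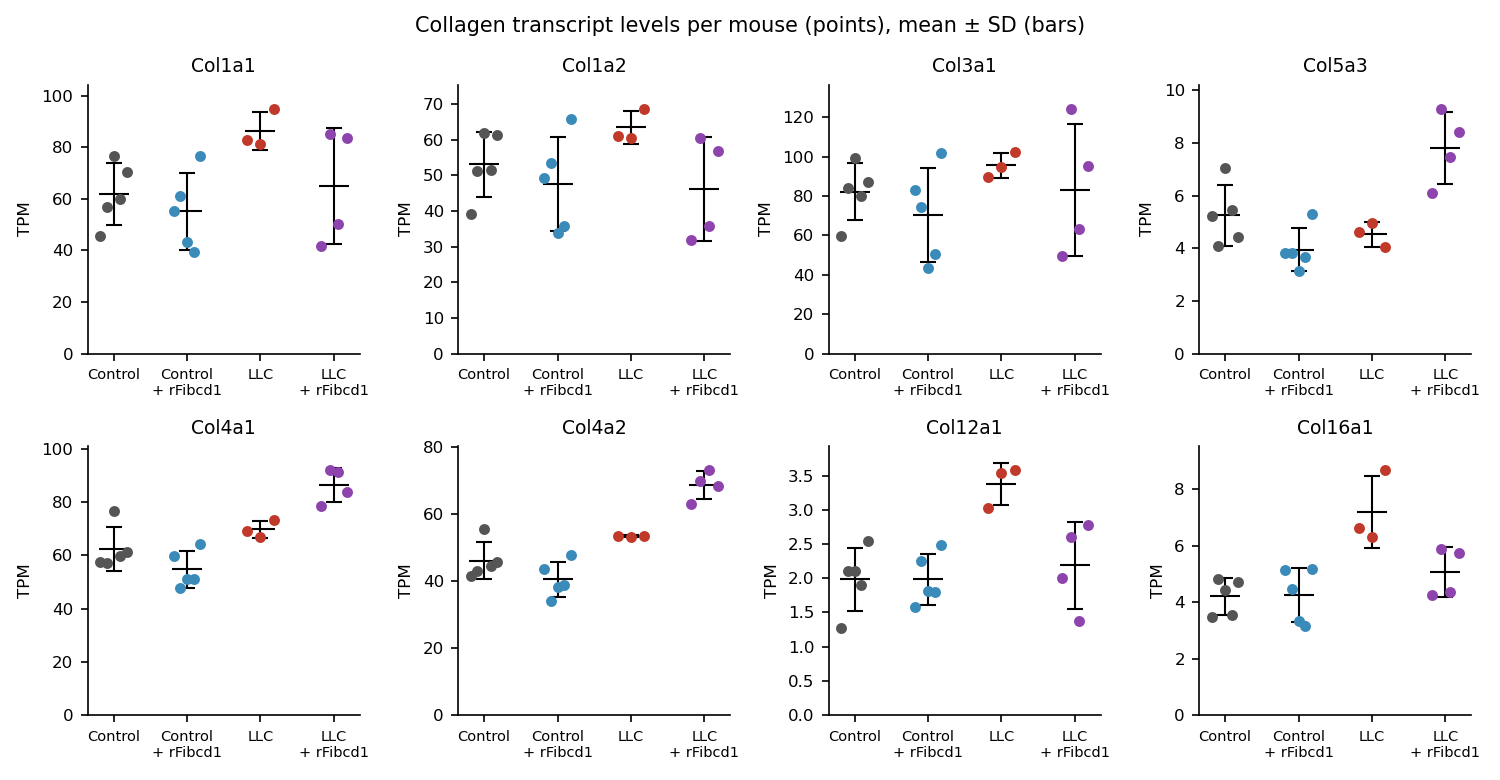
TPM of 8 collagen genes in each of the 17 mice (points), with the mean and SD of each group (bars). The LLC mice lie highest for Col12a1 and Col16a1, and the 4 LLC + rFibcd1 mice highest for Col4a1 and Col4a2.

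The ratio of the partner chains of type I collagen separated the mice by tumor. In Control (n = 5) Col1a1 over Col1a2 was 1.16 ± 0.0468 (SD), compared with 1.16 ± 0.0691 in Control + rFibcd1 (n = 5), 1.36 ± 0.0198 in LLC (n = 3) and 1.40 ± 0.0658 in LLC + rFibcd1 (n = 4). The 10 tumor-free mice ranged from 1.1 to 1.28 and the 7 tumor-bearing mice from 1.31 to 1.47. Of 11 chain ratios computed it was the only one without overlap, and since it was singled out after the values were seen it is given without a test. A ratio within a library is not changed by a single factor per library, and it was not computed after quantile normalization. The ratio shows only that the chains changed unequally. Col4a1 over Col4a2 ranged from 1.32 to 1.40 in tumor-free and from 1.22 to 1.37 in tumor-bearing mice. For Col6a1 over Col6a2, chains of the type VI filament, the ranges were 2.06 to 2.25 and 2.02 to 2.30.

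**Figure D3:**
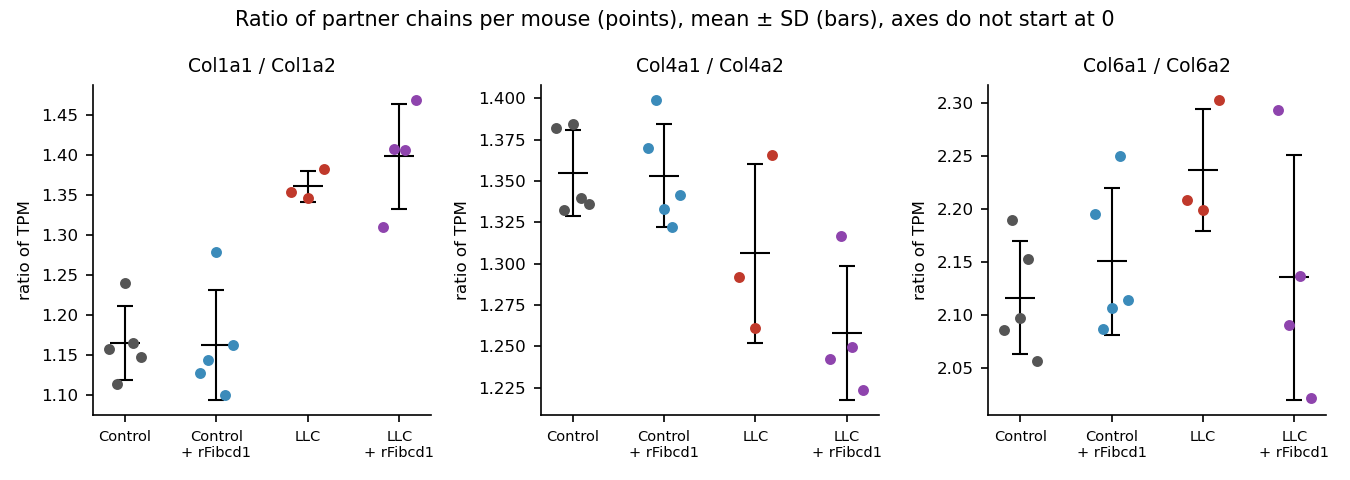
Ratio of TPM between partner chains of types I, IV and VI collagen in each of the 17 mice (points), with group mean and SD (bars), on axes that do not start at 0. The Col1a1 to Col1a2 ratio is at most 1.28 in tumor-free and at least 1.31 in tumor-bearing mice, and both other ratios overlap.

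LLC + rFibcd1 was compared with Control + rFibcd1 for the effect of the tumor in treated mice. These mice enter no group mean of LLC against Control, but both comparisons share the spread estimated from all 17 mice. 3 of 30 collagens passed, all higher, against 8.06% of the genes tested. They were Col4a1, Col4a2 and Col5a3, and the same 3 were those whose groups did not overlap, against 8.91% of all genes. The median collagen lay 0.0023 from the median gene. Of the 30 collagens, 16 were above 0 in both tumor comparisons, 4 below 0 in both and 8 above the median gene in both. The median gene itself stood at 0.16 in LLC against Control and 0.11 in LLC + rFibcd1 against Control + rFibcd1. The same counts over all genes were not taken, so these say nothing particular to collagens.

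Col4a1 and Col4a2, the pair whose shared first exon bases are printed above, code for the most widespread type IV trimer. Col4a1 had 57.3, 57.3, 76.8, 59.6 and 61.2 TPM in Control and 59.8, 47.6, 51.1, 51.2 and 64.2 TPM in Control + rFibcd1. It had 69.3, 67.0 and 73.2 TPM in LLC and 78.4, 91.9, 91.3 and 83.8 TPM in LLC + rFibcd1. In the deposited values the 4 LLC + rFibcd1 mice were above all 13 others, as they were after median-ratio scaling. Without mitochondrially encoded genes and after quantile normalization, 3 of the 4 were above all others.

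Col4a2 had 41.5, 43.0, 55.5, 44.5 and 45.8 TPM in Control and 43.6, 34.0, 38.3, 38.7 and 47.8 TPM in Control + rFibcd1. It had 53.6, 53.1 and 53.6 TPM in LLC and 63.1, 69.8, 73.1 and 68.5 TPM in LLC + rFibcd1. The 4 LLC + rFibcd1 mice were above the other 13 in the deposited values and under all 3 other scalings. In the deposited values 108 of 13305 genes, 0.812%, had all 4 LLC + rFibcd1 mice on top, with Col4a1 and Col4a2 the only collagens among them. Over the 17 mice the log2 levels of the pair had a Pearson correlation of 0.99, and Mast4 (0.92) and Mprip (0.90) came next, in libraries that share the group differences.

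Against Control + rFibcd1, Col4a1 was higher in LLC + rFibcd1 by 0.65 ± 0.095 (adjusted p = 0.00207) on the log2 scale and Col4a2 by 0.75 ± 0.091 (adjusted p = 0.000691). Both calls held under each other limma setting and without each mouse in turn, while Dunn's test on ranks called no collagen. In LLC against Control, Col4a1 stood at 0.17 ± 0.10 (adjusted p = 0.213) and Col4a2 at 0.22 ± 0.099 (adjusted p = 0.0955). Median-ratio scaling brought these estimates to -0.038 (adjusted p = 0.789) and 0.015 (adjusted p = 0.924), while Col4a2 passed without Control replicate 3 (adjusted p = 0.0342).

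Col5a3, the minor type V chain whose promoter is printed above, had 5.22, 4.10, 7.06, 5.47 and 4.43 TPM in Control and 3.80, 3.82, 3.12, 3.66 and 5.31 TPM in Control + rFibcd1. It had 4.61, 4.95 and 4.03 TPM in LLC and 6.10, 9.29, 7.47 and 8.41 TPM in LLC + rFibcd1. All LLC + rFibcd1 mice were above all LLC and all Control + rFibcd1 mice, and Control replicate 3 was above 1 of them. The log2 fold change was 0.84 ± 0.14 (adjusted p = 0.00408) in LLC + rFibcd1 against Control + rFibcd1 and -0.16 ± 0.16 (adjusted p = 0.425) in LLC against Control. With quantile normalization Col5a3 passed as lower in LLC than in Control, at -0.47 (adjusted p = 0.0370). The more abundant type V chains, Col5a1 and Col5a2, averaged 12.8 and 10.6 TPM over the 17 mice and passed in no comparison.

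**Figure D4:**
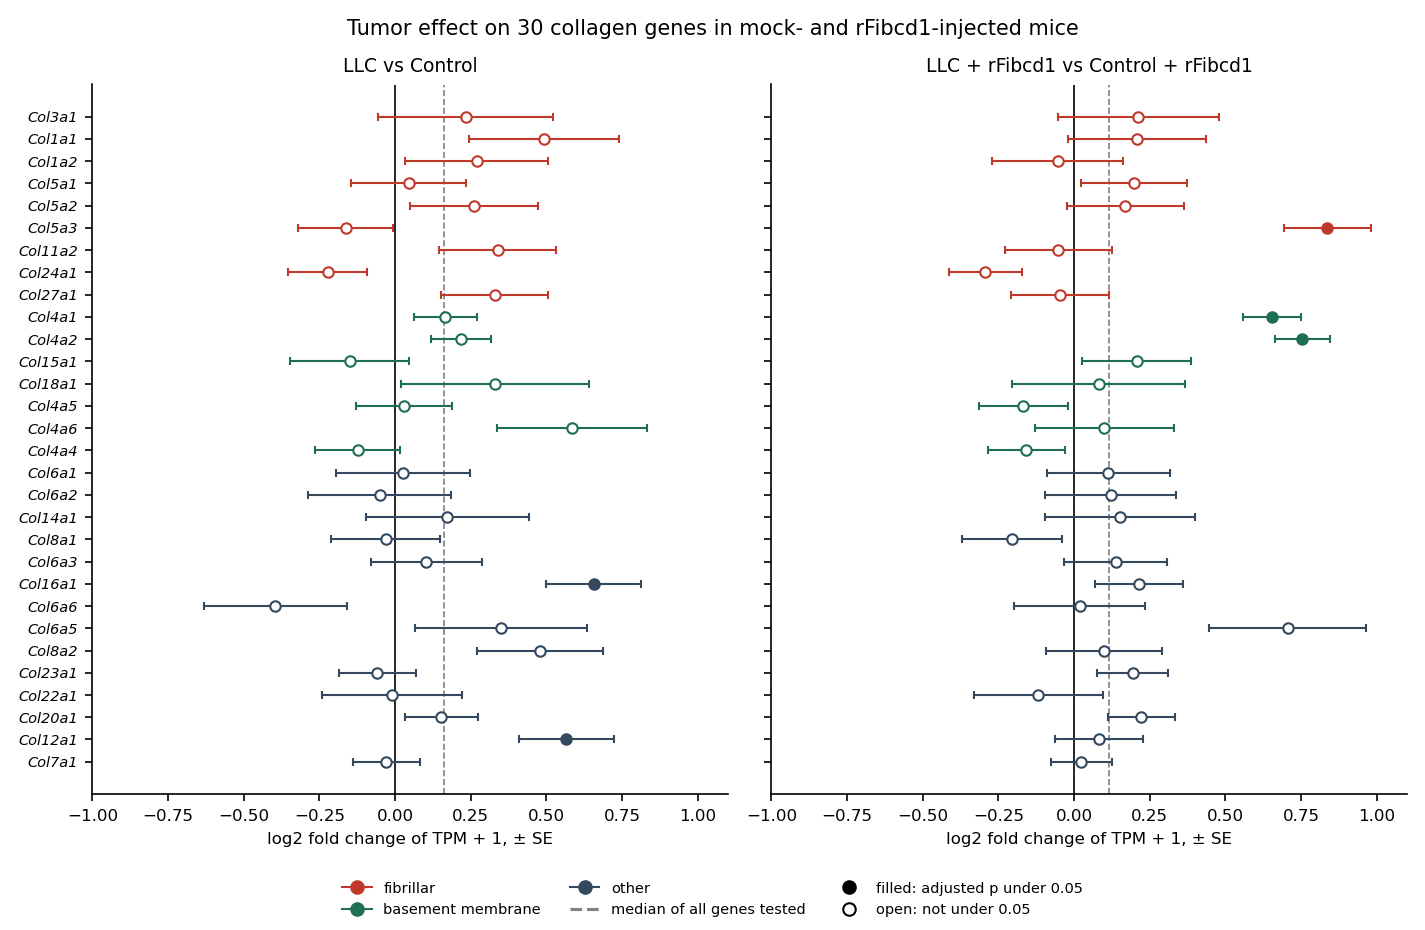
Log2 fold change of TPM + 1 with its SE for the 30 collagen genes tested, in LLC against Control and in LLC + rFibcd1 against Control + rFibcd1, filled where the adjusted p was under 0.05, with the median of all 13305 genes as a dashed line. Filled points are Col12a1 and Col16a1 in the former and Col4a1, Col4a2 and Col5a3 in the latter.

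Endothelial markers moved with the type IV pair. The 8 markers, none of them at 0, summed to 235 to 274 TPM in Control, 226 to 262 TPM in Control + rFibcd1, 268 to 299.7 TPM in LLC and 300.1 to 328 TPM in LLC + rFibcd1. In LLC + rFibcd1 against Control + rFibcd1, where 8.06% of all genes passed, 6 of 8 were higher, among them Pecam1, an adhesion protein of endothelial cells, at 0.49 ± 0.062 (adjusted p = 0.000878). In LLC against Control 2 of 8 were higher, where 35.8% of all genes passed. The part of endothelial cells in the differences of Col4a1, Col4a2 and Col5a3 was not tested.

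The further basement membrane chains did not pass in any comparison. Col4a5 and Col4a6, a head-to-head pair on chromosome X, averaged 3.19 and 1.23 TPM. Col4a6 ranged from 0.820 to 1.41 TPM in Control and was 1.49, 1.30 and 3.92 TPM in LLC, where the last value is that of LLC replicate 3. Its log2 fold change was 0.59 ± 0.25 (adjusted p = 0.0760), 0.24 without LLC replicate 3 and past the threshold without LLC replicate 2 (adjusted p = 0.0382). Col15a1, a multiplexin of vessel and muscle basement membranes, averaged 23.7 TPM, and Col18a1, from which endostatin is cut, 8.99 TPM.

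LLC + rFibcd1 was compared with LLC to ask what rFibcd1 changes in tumor-bearing mice. By limma 0 of 30 collagens passed, against 0.113% of the genes tested, and Dunn's test called 0. An unadjusted p under 0.05 was found for 6 of 30 collagens and for 3025 of the 13305 genes. Groups did not overlap for 6 collagens, against 14.6% of all genes, with Col4a1, Col4a2 and Col5a3 higher and Col12a1, Col16a1 and Col1a2 lower in LLC + rFibcd1. The log2 fold changes were 0.66 ± 0.16 (adjusted p = 0.124) for Col5a3, 0.35 ± 0.10 (adjusted p = 0.164) for Col4a2 and 0.30 ± 0.11 (adjusted p = 0.192) for Col4a1. They were -0.48 ± 0.16 (adjusted p = 0.187) for Col12a1 and -0.44 ± 0.16 (adjusted p = 0.197) for Col16a1, where the median gene stood at -0.11. With quantile normalization Col12a1 stood at -0.24 (adjusted p = 0.471) and Col16a1 at -0.22 (adjusted p = 0.335). Median-ratio scaling moved the type IV pair to 0.44 (adjusted p = 0.164) for Col4a1 and 0.49 (adjusted p = 0.140) for Col4a2. This comparison shares its LLC mice with LLC against Control and its treated mice with LLC + rFibcd1 against Control + rFibcd1.

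In mice without a tumor, rFibcd1 moved no collagen past the threshold. In Control + rFibcd1 against Control 0 of 30 passed by limma and 0 by Dunn's test, against 0% of all genes, and 1 of 30, Col5a3, had an unadjusted p under 0.05, as had 584 of the 13305 genes. Without overlap were 0 collagens, against 0.812% of all genes. Col5a3 stood at -0.34 ± 0.14 (adjusted p = 0.927), Col4a1 at -0.19 ± 0.090 (adjusted p = 0.927) and Col4a2 at -0.18 ± 0.086 (adjusted p = 0.927). The interaction asks if the response to rFibcd1 depended on the tumor, and 0 of 30 collagens passed it by limma, against 0% of all genes, with 4 of 30 collagens and 1142 of the 13305 genes at an unadjusted p under 0.05. Its estimates were 1.00 ± 0.21 (adjusted p = 0.115) for Col5a3, 0.54 ± 0.13 (adjusted p = 0.166) for Col4a2 and 0.49 ± 0.14 (adjusted p = 0.217) for Col4a1. For Col12a1 the estimate was -0.48 ± 0.21 (adjusted p = 0.540).

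Over all mice, 7 tumor-bearing against 10 tumor-free with groups weighted by their number of mice, 7 of 30 collagens passed, 6 higher and 1 lower, against 44.8% of the genes tested. Without overlap were 0 collagens, against 2.26% of all genes. This comparison reuses the mice of the 2 tumor comparisons above. Col12a1 and Col16a1 had passed in mock-injected mice alone, and Col4a1, Col4a2 and Col5a3 in rFibcd1-injected mice alone. Col5a3 had stood at -0.16 in mock-injected and 0.84 in rFibcd1-injected mice. Over all mice, the type IV pair was higher by 0.51 ± 0.067 (adjusted p = 0.000393) for Col4a2 and 0.43 ± 0.070 (adjusted p = 0.00104) for Col4a1. The FACIT collagens were higher by 0.40 ± 0.11 (adjusted p = 0.00865) for Col16a1 and 0.29 ± 0.11 (adjusted p = 0.0380) for Col12a1, Col5a3 by 0.38 ± 0.11 (adjusted p = 0.0106) and Col6a5 by 0.54 ± 0.19 (adjusted p = 0.0319). Col24a1 was lower, at -0.26 ± 0.088 (adjusted p = 0.0272). Col4a1, Col4a2 and Col24a1 passed under all 3 other scalings, Col16a1 under all but quantile normalization, and Col5a3 under the removal of mitochondrially encoded genes alone. Col12a1 and Col6a5 passed under none of them.

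Some of these calls lay close to the threshold. That of Col24a1 was lost without LLC replicate 1 or LLC + rFibcd1 replicate 2, where it stood at -0.25 (adjusted p = 0.0539) and -0.24 (adjusted p = 0.0560). That of Col6a5 was lost without any 1 of 6 mice, with log2 fold changes of 0.45 to 0.54 and adjusted p-values of 0.0513 to 0.0682. That of Col12a1 was lost without any 1 of 8, with 0.23 to 0.29 and adjusted p-values of 0.0523 to 0.129. Col6a5, a relative of the type VI chains, had 2.31, 5.09, 3.39, 2.74 and 2.75 TPM in Control and 4.49, 3.04, 1.47, 1.96 and 3.92 TPM in Control + rFibcd1. It had 4.32, 5.41 and 3.36 TPM in LLC and 3.03, 6.14, 4.98 and 7.60 TPM in LLC + rFibcd1, with wide overlap. Col24a1, a minor fibrillar collagen, had 1.03, 0.827, 1.47, 0.971 and 1.41 TPM in Control and 0.760, 1.52, 1.11, 1.1 and 1.55 TPM in Control + rFibcd1. It had 0.741, 0.733 and 1.01 TPM in LLC and 0.911, 0.649, 0.769 and 0.828 TPM in LLC + rFibcd1. The Col24a1 levels rest on 124 to 295 reads a mouse.

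The abundant type VI chains passed in no comparison. Col6a1 averaged 61.4 ± 10.9 TPM in Control, 51.8 ± 13.5 TPM in Control + rFibcd1, 61.8 ± 1.96 TPM in LLC and 56.4 ± 15.99 TPM in LLC + rFibcd1. Col6a2 averaged 29.0 ± 5.39, 24.2 ± 6.62, 27.6 ± 0.401 and 26.7 ± 8.59 TPM in the same order. Across the 17 mice Col6a1 and Col6a2 correlated at 0.99 (Pearson r of log2 levels). Col1a1 was most like Col5a2 (0.95), Col1a2 (0.94) and Pcolce (0.93), an enhancer of procollagen processing, whereas Col1a1 and Col4a1 correlated at 0.44. These correlations describe libraries that share group differences and depth.

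Of the 14 collagens below the filter, 7 were highest in LLC replicate 3. Among the 13305 genes that passed the filter, 29.97% were highest in this mouse, and the share among all genes below it was not taken. Col2a1, the main collagen of cartilage, reached 2.65 TPM there (594 reads) and at most 0.0749 TPM in the other 16 mice. Col10a1, made by hypertrophic cartilage cells, reached 1.15 TPM (87 reads) and at most 0.0384 TPM elsewhere. Col9a1, Col9a2 and Col9a3, the chains of the cartilage FACIT type IX, stood at 0.155, 0.587 and 0.686 TPM in this mouse and at most 0.0296, 0.266 and 0.291 TPM elsewhere. These 5 collagens were thus highest in the same mouse. Of the type XI chains, which cartilage also makes, Col11a1 was highest there as well at 0.792 TPM, whereas Col11a2, which passed the filter, had 3.00 TPM there against 3.18 TPM in LLC replicate 1 and 3.99 TPM in LLC + rFibcd1 replicate 4. Of the 8 cartilage markers found, some were highest in this mouse and some were not. The proteoglycan Acan stood at 0.376 TPM there against at most 0.0157 TPM elsewhere and the link protein Hapln1 at 0.221 against 0.101 TPM. Matn1 and Ucma reached at most 0.0620 and 0.0935 TPM in any mouse, near the level of single reads, and were not ranked. The other 4 were higher in another mouse. Sox9, a transcription factor of cartilage, stood at 2.47 TPM where the highest other mouse had 5.10 TPM, Matn3 at 0.329 against 0.622 TPM, Comp at 9.64 against 14.1 TPM and Chad at 20.9 against 32.7 TPM. The marker sum, mostly Comp and Chad, which tendon also makes, was 34.1 TPM in LLC replicate 3, the lowest of the LLC mice, against 45.2 and 49.1 TPM in replicates 1 and 2. The part of cartilage in these levels was not tested.

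**Figure D5:**
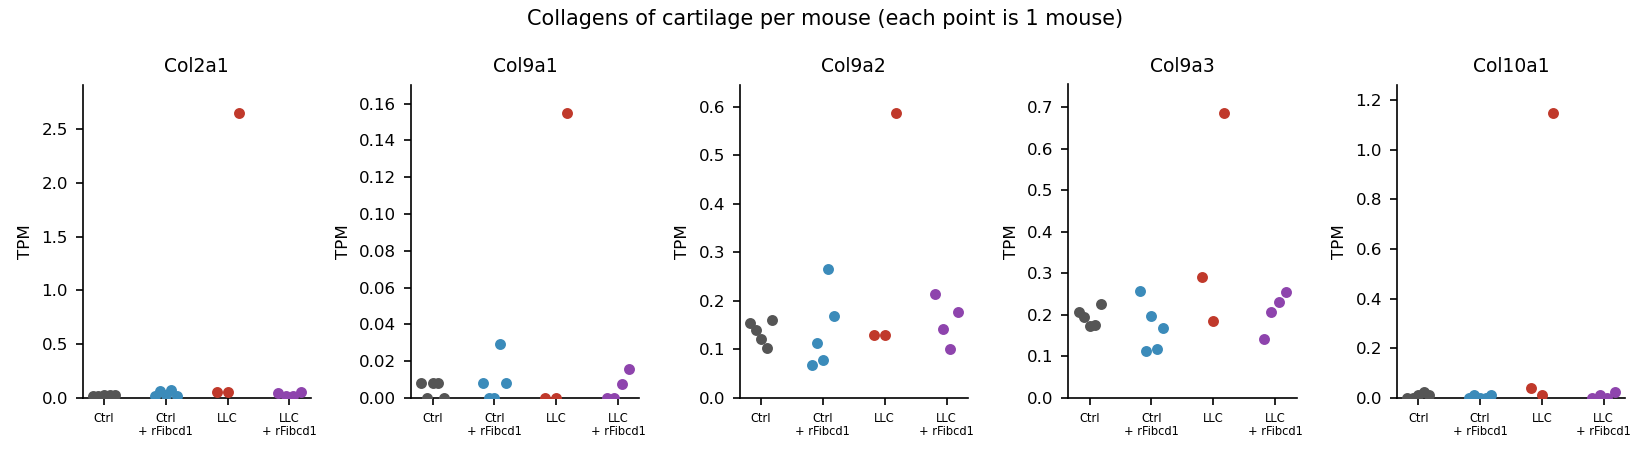
TPM of 5 collagens of cartilage (types II, IX and X) in each of the 17 mice (1 point each, Ctrl is Control). LLC replicate 3 is highest in all 5 panels, at 2.65 TPM for Col2a1 and 1.15 TPM for Col10a1.

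The remaining members below the filter stayed under 1 TPM in every mouse. Their highest values were 0.949 TPM for Col13a1, 0.910 TPM for Col4a3, 0.792 TPM for Col11a1, 0.596 TPM for Col26a1, 0.581 TPM for Col28a1, 0.325 TPM for Col6a4, 0.265 TPM for Col25a1, 0.25 TPM for Col17a1 and 0.0635 TPM for Col19a1. Col11a1, a fibrillar chain of cartilage, and Col6a4 were also highest in LLC replicate 3.

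Genes that build, bind and cut collagen were read in the same fit. In LLC against Control, where 35.8% of all genes passed, 8 were higher and 2 lower of 28 genes of collagen synthesis. Ppib, a folding catalyst for procollagen, rose by 0.70 ± 0.18 (adjusted p = 0.0139), Pcolce2, a relative of Pcolce, by 0.58 ± 0.14 (adjusted p = 0.0127) and P3h2, a prolyl hydroxylase, by 0.55 ± 0.092 (adjusted p = 0.00734). Of 13 genes of collagen turnover 4 were higher and 0 lower. Mmp3, a matrix protease, rose by 1.51 ± 0.34 (adjusted p = 0.0111), Timp1, an inhibitor of such proteases, by 1.06 ± 0.18 (adjusted p = 0.00734) and the protease Mmp9 by 1.04 ± 0.30 (adjusted p = 0.0181). The medians of the synthesis and turnover lists lay 0.11 and 0.039 above the median gene.

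Against the same 35.8% of all genes, 6 of 17 collagen-binding proteins and receptors were higher and 0 lower. Fmod, a proteoglycan that binds fibrils, rose by 1.28 ± 0.40 (adjusted p = 0.0263), Postn by 1.14 ± 0.15 (adjusted p = 0.00460) and Prelp by 0.71 ± 0.19 (adjusted p = 0.0159). Of 12 basement membrane partners 2 were higher and 0 lower, the matrix protein Sparc by 0.40 ± 0.13 (adjusted p = 0.0315) and the laminin chain Lamb1 by 0.39 ± 0.14 (adjusted p = 0.0424). Of 15 TGF-beta and fibrosis genes 4 were higher and 0 lower. Ltbp2, a microfibril protein, rose by 1.04 ± 0.23 (adjusted p = 0.0111), the smooth muscle actin Acta2 by 0.81 ± 0.30 (adjusted p = 0.0478) and the growth factor Tgfb1 by 0.72 ± 0.21 (adjusted p = 0.0193). These medians lay 0.15, -0.080 and -0.014 from the median gene.

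In LLC + rFibcd1 against Control + rFibcd1, where 8.06% of all genes passed, the lists held 4 higher and 0 lower of 28 genes for synthesis, 3 higher and 1 lower of 13 for turnover, 3 higher and 0 lower of 17 for binding, 1 higher and 0 lower of 12 for the basement membrane and 1 higher and 0 lower of 15 for TGF-beta. In LLC + rFibcd1 against LLC and in Control + rFibcd1 against Control, limma called 0 genes of these 5 lists.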

How the data were processed

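RNA-seq libraries of diaphragm muscle were analysed from 17 mice in 4 groups. The authors trimmed the reads, mapped them to the mouse genome (mm10) with CLC Genomics Workbench and deposited TPM (transcripts per 1000000) per gene symbol, without read counts. The labels name a stranded mRNA kit and the study's methods an unstranded one, and whether counting used strand is not given in the sources used here, so reads in the 22 bases shared by Col4a1 and Col4a2 cannot be assigned with certainty. No p-value or fold change of the authors was used.

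The collagen members and gene lists were chosen with earlier results of these data known. From the deposited TPM, the 13305 genes that reached 1 TPM in 3 or more samples were tested as log2(TPM + 1), a scale that understates changes of low genes, with limma 3.58.1 in R 4.3.3. The model had 4 groups, a mean-variance trend and 13 residual degrees of freedom, and p-values were two-sided with Benjamini-Hochberg adjustment over all genes (threshold 0.05). The study used rank tests, and Dunn's test was an alternative here. Its normal approximation is not usable at groups of this size, and its count over all genes is not given here. A lack of calls by it therefore says nothing particular about collagens. Single genes not overlapping between groups were counted beside the same share of all genes. Reads were recovered from low TPM values, of which 79.5% to 82.0% lay within 0.02 of a whole read. That share is too low for a count test. The p-values measure the spread between mice as labelled, and counting error is not modelled apart from it.

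Named were the 2 most abundant members tested in each class, up to 5 called members in each direction per comparison, every member below the filter by its highest value, members without overlap in LLC against Control, called members by how scaling moved them, up to 3 changed genes per list, and the 3 genes most correlated with Col1a1 and Col4a1. Alternatives were a pseudocount of 0.1 TPM, no filter or a filter at 5 TPM, median-ratio scaling, rescaling without mitochondrially encoded genes, quantile normalization, a replicate block, a fit of the groups compared alone, Dunn's test and leaving out each mouse. The fit was tested on simulated data. Sequences came from RefSeq (GRCm38.p6), and positions from GENCODE on GRCm38. Figures were drawn with matplotlib 3.10.9.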

Additional observations from a re-analysis of the deposited data

Results flagged for a closer look

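Of 96 groups of values examined, 6 held a mouse far from the rest of its group, where chance alone flags about 1 in 20 groups. The rule covers groups of 4 or 5 mice only, so the 3 LLC mice were not examined by it. In LLC + rFibcd1 replicate 4, Col22a1, a FACIT collagen of muscle-tendon junctions, was at 4.06 TPM (1.86 to 2.19 TPM in the others of the group) and Col11a2 at 3.99 TPM (1.67 to 2.02 TPM). In Control replicate 3, Col4a1 was at 76.8 TPM (57.3 to 61.2 TPM in the others). In Control replicate 1, Col4a4 was at 0.780 TPM (1.22 to 1.39 TPM) and Col6a6 at 3.31 TPM (5.04 to 5.61 TPM). In Control replicate 2, Col23a1 was at 2.52 TPM (2.90 to 2.97 TPM).

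Among members left out of the tests, Col2a1 reached 2.65 TPM and Col10a1 1.15 TPM in LLC replicate 3, above the levels of the Control mice. The rule for flagging members below the filter was chosen after seeing the data.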

How the results depend on the processing

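The count of collagens called in LLC against Control, 2, was 5 with no filter, 1 with a filter at 5 TPM, 1 with median-ratio scaling, 6 with quantile normalization (Col16a1 higher and Col23a1, Col24a1, Col4a4, Col5a3 and Col6a6 lower in LLC, with Col12a1 not called), 6 in a fit of these groups alone (Col12a1, Col16a1, Col18a1, Col1a1, Col27a1 and Col8a2), 0 with a replicate block and 0 by Dunn's test, and ran from 0 (without LLC replicate 3) to 3 when mice were left out. At 5 TPM Col12a1 was not among the genes tested. Counts over all genes are given below for the 3 scalings only. Under the other settings a change in the collagen count cannot be told from a change over all genes. The 3 collagens called in LLC + rFibcd1 against Control + rFibcd1 were the same genes under every limma setting that kept all mice, 0 by Dunn's test and 3 to 5 when mice were left out (5 without Control + rFibcd1 replicate 1). Over tumor-bearing against tumor-free mice 5 to 9 were called under the other settings and 5 to 8 when mice were left out. There the call of Col6a5 was lost without Control + rFibcd1 replicate 3, Control + rFibcd1 replicate 4, LLC replicate 2, LLC + rFibcd1 replicate 2, LLC + rFibcd1 replicate 3 and LLC + rFibcd1 replicate 4 in turn, and that of Col12a1 without Control replicate 1, Control replicate 4, Control + rFibcd1 replicate 1, Control + rFibcd1 replicate 3, Control + rFibcd1 replicate 4, LLC replicate 1, LLC replicate 2 and LLC replicate 3 in turn. No setting gave a call for the comparisons of rFibcd1 with mock injections or the interaction. Col4a1 in LLC against Control turned to -0.038 under median-ratio scaling. The basement membrane share, taken over type IV chains alone, was 21.6% in Control, 22.1% in Control + rFibcd1, 21.4% in LLC and 28.9% in LLC + rFibcd1. The median gene in LLC against Control stood at 0.16, -0.013 with median-ratio scaling, 0.075 without mitochondrially encoded genes and -0.099 with quantile normalization, and the split of calls over all genes moved from 3958 higher and 801 lower to 1914 and 2036, 2480 and 1465, and 1510 and 3175. Of the fold changes of named collagens under these settings, 787 kept their direction and side of the threshold, 35 lost and 8 gained a call and 1 turned. Where no value shows a cause, the cause was not tested.

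Replicate numbers did not pair the samples: deviations of the 22 pairs with the same number correlated from -0.46 to 0.49 (median -0.061). With a replicate block 0 collagens were called in LLC against Control, 3 in LLC + rFibcd1 against Control + rFibcd1 and 5 over all tumor-bearing against all tumor-free mice.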
